A study of Mus musculus with 24 samples.

Results

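This comparison rests on 10 of the 24 arrays of the series. They hold the Lin-CD29hiCD24+ cells and the whole Lin- fraction of the same 5 mouse mammary tumours, lettered A to E, so each population has 5 arrays and each tumour forms a pair. The arrays were chosen by their labels alone. The tumours were independent mammary adenocarcinomas of C57BL6/J mice of genotype Apc+/1572T, which carry 1 normal and 1 mutant copy of Apc, and every tumour array of both populations shares that genotype; the labels give no ages. Lin- means cells sorted as free of lineage markers, and CD29 (integrin beta 1, the product of Itgb1) and CD24 (the product of Cd24a) set the gate inside that fraction. By its name the Lin- fraction holds the gated cells together with all other lineage-negative cells. From each tumour 10000 cells of each population were sorted, and their RNA was labelled in a two-cycle protocol for Affymetrix mouse arrays. The 5 Lin-CD29+CD24+ arrays of the same tumours, and 3 CD29hiCD24+ and 3 Lin- arrays from pooled mammary glands of C57BL6/J Apc+/+ mice, are used below only to place the differences.

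In the mammary gland, cells with high CD29 and CD24 are the basal layer, in which transplantation assays place mammary stem cell activity. Basal cells sit on the basement membrane through integrins and carry keratins 5 and 14, and luminal cells above them carry keratins 8 and 18. Apc is a scaffold of the complex that marks beta-catenin for destruction, so its loss raises Wnt signalling, and mammary tumours driven by Wnt signalling often contain areas of squamous differentiation, in which epithelial cells keratinise as epidermis does. The purpose given for the series includes comparing the stem cell gate with its differentiated counterparts within tumours.

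All values are deposited log2 signals, so a difference of 1 is a 2-fold difference. Differences are CD29hiCD24+ minus Lin- of the same tumour, given as the mean of 5 pairs ± standard error. A gene was called when limma's test with tumour as a block gave a Benjamini-Hochberg adjusted p under 0.05 over 13485 genes. Signals at or under 2.83 lie in a low band that holds 40% of all values, and differences that end there are compressed. Array medians ran from 3.29 to 3.41 over the 10 arrays. The 3' minus 5' signal of actin, which rises as RNA shortens, was 2.47 in the CD29hiCD24+ array of tumour E, the highest of its group, and 1.66 to 2.13 in the other 4 CD29hiCD24+ arrays; the Lin- array of tumour D had 2.56. In tumour E this signal was 0.79 higher in CD29hiCD24+ than in Lin- cells, while the same difference was -0.44 to -0.03 in the other 4 tumours.

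The CD29hiCD24+ cells had lower signals of keratinisation and epithelial junction genes than the Lin- fraction of the same tumour. Their signals of cell cycle, hypoxia and some basal adhesion genes were higher. Stromal genes were lower in most tumours, but the mean of the fibroblast and matrix list differed by 0.14 in tumour D. Of 13485 genes, 1247 were called (9.25%), 585 of them higher (4.34%) and 662 lower (4.91%) in CD29hiCD24+ cells. The difference had the same sign in all 5 tumours for 1239 of the 1247, against 26.8% of all genes tested. Differences of at least 4-fold were more often reductions, with 167 lower and 53 higher called genes, and differences of at least 16-fold were reductions in 39 genes and increases in 0. The 5 values of one population lay wholly above the 5 of the other for 608 of the called genes, against 6.64% of all genes tested. Both counts follow in part from the test that called these genes on the same values. They describe the calls and are not further support for them. Leaving out 1 tumour reduced the number of called genes, to 676 without A, 521 without B, 425 without C, 786 without D and 501 without E. In a fit that ignored the pairing by tumour (no replicate block), 465 genes were called.

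The gate itself can be read in the RNA in part. Itgb1, which encodes CD29, had signals of 10.70, 11.32, 11.16, 10.63 and 9.98 in CD29hiCD24+ cells of tumours A to E and 9.96, 10.44, 10.23, 9.54 and 9.75 in Lin- cells. It was higher in the gated cells of every tumour, by 0.77 ± 0.14 (adjusted p = 0.0259), although the ranges overlapped through the low value of tumour E. Cd24a differed by -0.19 ± 0.15 (adjusted p = 0.468), with signals from 12.92 to 14.05 in CD29hiCD24+ and from 13.57 to 14.05 in Lin- cells. Apc, the mutated gene, differed by -0.26 ± 0.18 (adjusted p = 0.402), and the array does not tell the mutant copy from the normal one. It was lowest in tumour E in all 3 sorted populations, at 8.06 in CD29hiCD24+, 9.13 in Lin- and 9.49 in CD29+CD24+ cells. Both populations carried high signals of epithelial genes: Krt14 lay between 14.42 and 14.90, Krt5 between 13.36 and 14.39, and Epcam between 12.67 and 13.76 over the 10 arrays. None of these 3 was called, with differences of -0.04 for Krt14, 0.45 for Krt5 and -0.08 for Epcam, and the basal regulator Trp63 differed by 0.28 (adjusted p = 0.474). The small differences of Krt14 and Epcam changed sign when the kept probe sets of a gene were averaged.

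**Figure D1:**
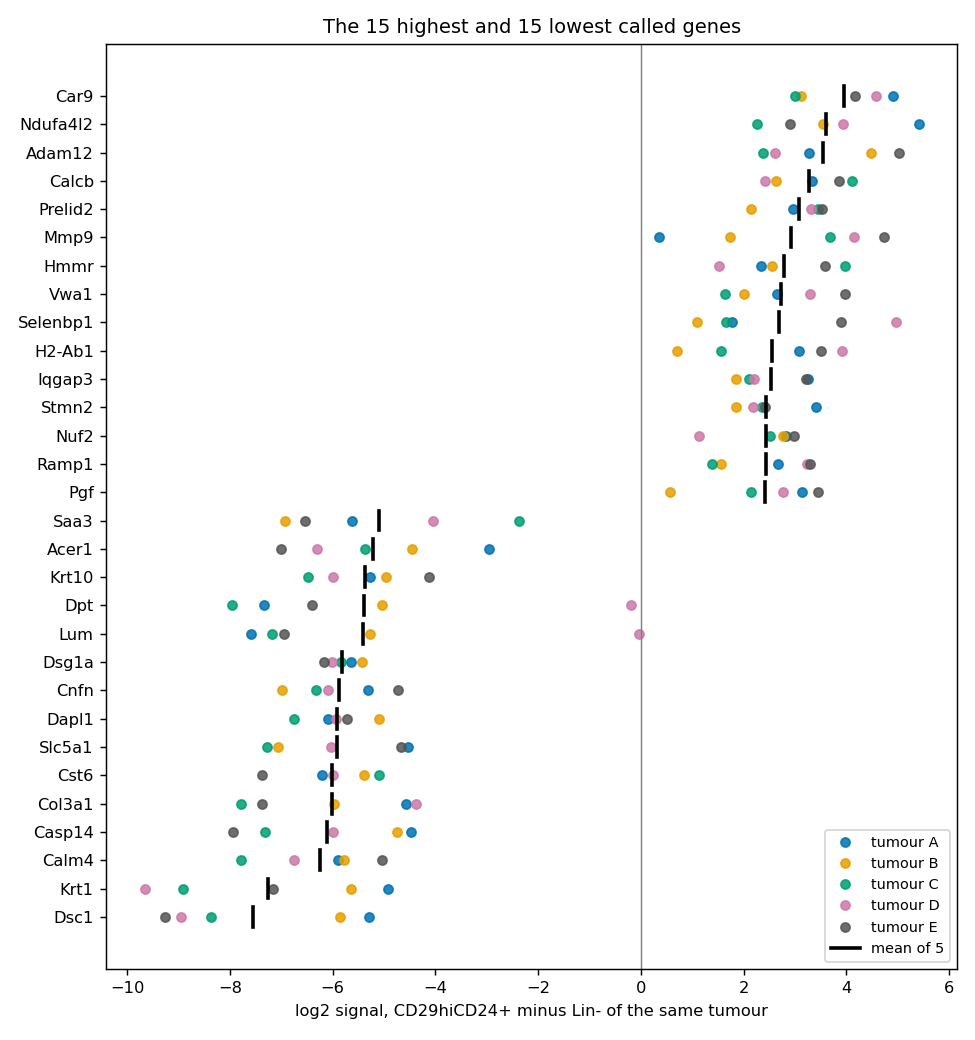
The 15 called genes with the highest and the 15 with the lowest difference among those with the same sign in all 5 tumours; each point is 1 tumour (log2 signal, CD29hiCD24+ minus Lin-), and the black bar is the mean of 5. Reductions reach -7.55 and increases 3.95, and tumour D lies near 0 for Lum and Dpt.

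The 15 lowest genes were mostly of 2 kinds, proteins of the cornifying epidermis and proteins of the connective tissue matrix. Dsc1, a desmosomal cadherin of upper epidermal layers, was the lowest. Its signal was 8.05, 8.95, 11.18, 11.97 and 12.15 in Lin- cells of tumours A to E and 2.77, 3.09, 2.81, 3.02 and 2.88 in CD29hiCD24+ cells. All 5 gated values were therefore at or near the low band, and the difference was -7.55 ± 0.65 (adjusted p = 0.00254). Krt1, an early keratin of epidermal differentiation, measured 6.98, 7.76, 11.02, 11.67 and 12.84 in Lin- cells and 2.04, 2.11, 2.11, 2.01 and 5.68 in the gated cells. The 5.68 of tumour E stood apart from the other 4 gated values, and the difference was -7.26 ± 0.72 (adjusted p = 0.00384). Casp14, a caspase of cornification, was lower by 6.10 on the log2 scale, and its gated values of 2.51 to 2.76 were all within the low band. Others of the same kind were Calm4 (-6.25), a skin calcium-binding protein, Cst6 (-6.01), a cysteine protease inhibitor of the epidermis, Cnfn (-5.88), a cornified envelope protein, Dsg1a (-5.82), the desmosomal partner of Dsc1, Krt10 (-5.37), the keratin that pairs with Krt1, and Acer1 (-5.22), an epidermal ceramidase. Dapl1 (-5.92), a marker of epithelial differentiation, and Slc5a1 (-5.92), a sodium-glucose transporter, completed the non-matrix genes together with Saa3 (-5.10), an acute-phase protein. The matrix genes among the 15 were Col3a1 (-6.02), a fibrillar collagen chain, Lum (-5.40) and Dpt (-5.38), both collagen-binding matrix proteins.

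The 15 highest genes were led by Car9, the carbonic anhydrase induced by low oxygen. Its signal was 8.27, 6.43, 8.54, 7.83 and 8.57 in CD29hiCD24+ cells and 3.37, 3.32, 5.54, 3.25 and 4.41 in Lin- cells. The populations did not overlap, and the difference was 3.95 ± 0.33 (adjusted p = 0.00228). Ndufa4l2, a mitochondrial subunit that is also a hypoxia target, was higher by 3.61 ± 0.43 (adjusted p = 0.00731), with 5.49 to 7.89 in the gated cells and 1.93 to 5.31 in Lin- cells. Adam12, a membrane metalloprotease, was higher by 3.55 ± 0.42 (adjusted p = 0.0072), again without overlap. Hmmr (2.79), Iqgap3 (2.53) and Nuf2 (2.44) take part in or follow cell division, Nuf2 as a part of the kinetochore. Secreted factors and their receptors among the 15 were Calcb (3.27), a calcitonin gene-related peptide, Ramp1 (2.43), a subunit of the receptor for that peptide, and Pgf (2.41), placental growth factor. Mmp9 (2.93), a gelatinase, Vwa1 (2.72), a matrix protein, Selenbp1 (2.68), Stmn2 (2.44), a microtubule regulator, and the MHC class II chain H2-Ab1 (2.55) completed the list with Prelid2 (3.08), of which 1 of 2 kept probe sets had the opposite sign. Of these 30 genes, 22 were called under each of the 15 settings tried; Selenbp1, Mmp9, H2-Ab1, Pgf, Lum, Dpt, Vwa1 and Saa3 each lost the call under at least 1.

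Squamous keratinisation genes were lower in CD29hiCD24+ cells. Of 22 measured genes, 16 were called lower and 0 higher, with a median difference of -2.38 against -0.003 over all genes tested. The mean signal of the list was 10.27, 10.70, 11.44, 11.35 and 12.14 in Lin- cells of tumours A to E and 7.86, 8.32, 8.32, 8.10 and 8.88 in CD29hiCD24+ cells, so the populations were separate in every tumour. Tumour E had the highest mean signal of this list in both populations. The fall was not uniform along the programme: Krt16, which marks activated keratinocytes, was lower by 0.90 on the log2 scale and Krt79 by 1.50, while Krt10 was lower by 5.37. Krt10 measured 12.01, 12.16, 14.01, 14.45 and 14.79 in Lin- cells and 6.73, 7.20, 7.52, 8.45 and 10.67 in the gated cells, with no overlap (± 0.33, adjusted p = 0.000886). Sprr1a, a cornified envelope precursor, was lower by 3.98 ± 0.14 yet still measured 9.93 to 11.34 in the gated cells. The 6 members that were not called were Flg (-3.07), Krt4 (-0.96), Klk8 (-0.59), Krt6a (-0.02), Ivl (0.56) and Lor (0.71); Lor and Ivl encode late envelope proteins, and Krt6a is another keratin of activated keratinocytes. Leaving out single tumours gave 13 to 17 members called lower, and 0 higher each time.

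Epithelial junction genes moved the same way. Of 25 measured genes 14 were called lower and 0 higher, with a median of -1.29. Their mean signal was 9.87 to 10.25 in Lin- and 8.70 to 8.97 in CD29hiCD24+ arrays. Ocln (occludin, -2.40 ± 0.33), Cldn4 (-2.34 ± 0.32) and Cldn1 (-2.23 ± 0.22) build tight junctions, and Ppl (periplakin, -2.11 ± 0.19) links desmosomes to keratins. Cldn1 measured 9.74, 11.00, 11.66, 11.62 and 11.90 in Lin- cells and 8.33, 9.02, 9.27, 9.30 and 8.87 in the gated cells, with no overlap. Cdh1 (E-cadherin), the core cadherin of adherens junctions, was lower by only 0.50 ± 0.12 (adjusted p = 0.0489) and kept signals of 12.99 to 13.67 in the gated cells. Luminal genes were lower in part, with 6 of 22 called lower, 1 higher and a median of -0.56. Elf5, a transcription factor of luminal progenitors, measured 5.53, 5.98, 6.46, 7.13 and 6.80 in Lin- cells and 3.41, 2.89, 3.66, 2.72 and 2.26 in the gated cells. It was lower in every tumour, by 3.39 ± 0.38 (adjusted p = 0.00622). Aldh1a3, a retinaldehyde dehydrogenase of luminal progenitors, was lower by 2.35 ± 0.16, and Tspan8 by 2.32 ± 0.53. The luminal keratins Krt8 (-0.18, adjusted p = 0.889) and Krt18 (-0.53, adjusted p = 0.548) were not called. Krt8 was lower in the gated cells of tumours A and B, where Lin- cells had 12.10 and 12.56, and higher in those of C, D and E. The count of luminal members called lower was 5 without A, 2 without B, and 3 without C, D or E, with medians from -0.93 without E to -0.27 without B.

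**Figure D2:**
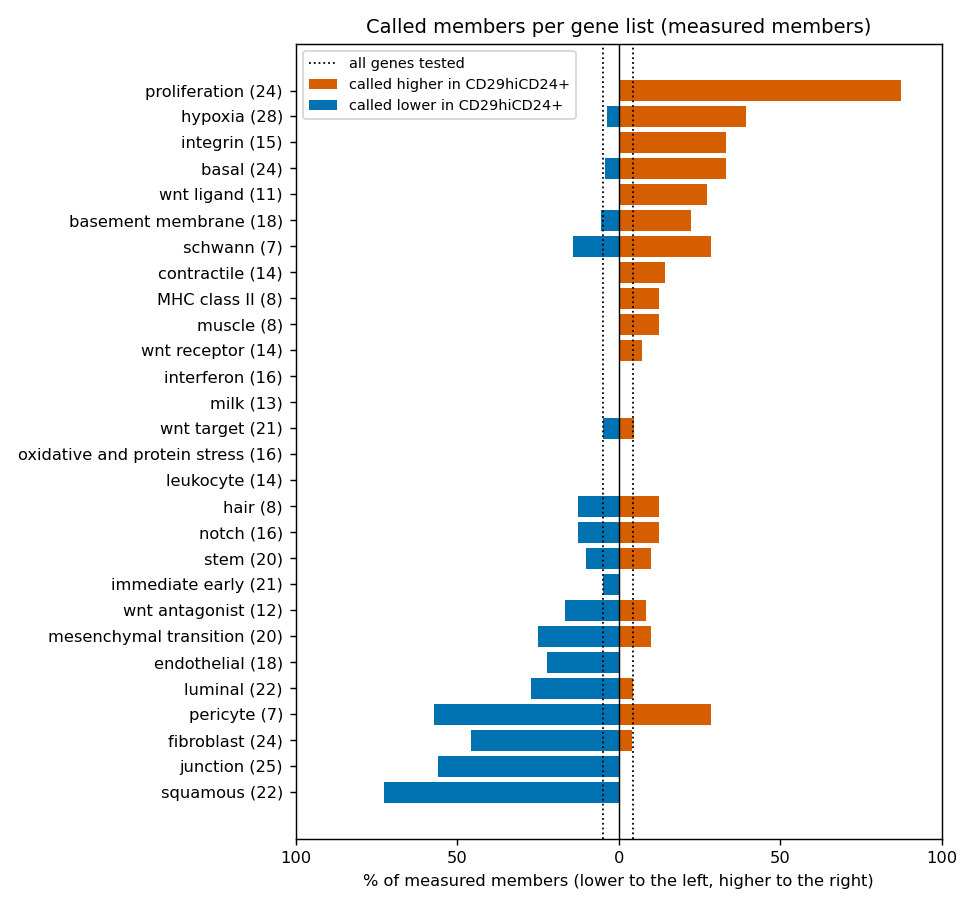
Share of the measured members of each gene list called higher (right) or lower (left) in CD29hiCD24+ than in Lin- cells of the 5 tumours, with the number measured in brackets; dotted lines are the shares over all genes tested, 4.34% higher and 4.91% lower. Proliferation stands farthest to the right and squamous keratinisation farthest to the left. The gate, erythroid and adipocyte lists, with 3, 4 and 5 measured members, are not drawn.

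Cell cycle genes were higher in CD29hiCD24+ cells. Of 24 measured members 21 were called higher and 0 lower, with a median difference of 1.41. Aurka, a mitotic kinase of the spindle poles, measured 7.31, 6.76, 5.41, 6.33 and 6.88 in the gated cells and 4.85, 4.29, 2.86, 4.39 and 4.78 in Lin- cells. Tumour C was lowest in both populations, the populations did not overlap, and the difference was 2.30 ± 0.17 (adjusted p = 0.00149). Bub1b, a spindle checkpoint kinase, was higher by 2.13 ± 0.36, Cdk1, the mitotic cyclin-dependent kinase, by 2.08 ± 0.26, and Plk1, a polo-like kinase, by 2.06 ± 0.44. Among genes of DNA replication, the 6 measured subunits of the replicative helicase, Mcm2 to Mcm7, were each called higher by 0.89 to 1.43. The 3 members not called were Aurkb (1.84), Kif11 (0.91) and Pcna (-0.05), the last a sliding clamp of DNA polymerase. Tumours differed in the size of this increase. The mean difference of the list was 1.92 in A, 1.60 in B, 1.50 in C and 1.70 in E, but 0.41 in D. In D the mean signal was 7.84 in Lin- cells, the highest of the 5, and 8.25 in CD29hiCD24+ cells, the lowest of the 5. In A these means were 7.78 and 9.70. The count of called members was 8 without tumour A, 8 without B, 6 without C, 6 without E and 22 without D, with medians from 1.29 to 1.66.

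Genes of the hypoxia response and glycolysis were also higher. Of 28 measured members 11 were called higher and 1 lower, with a median of 0.60. Beside Car9, the largest increase was that of Bnip3, a mitochondrial protein of cell death and mitophagy. It measured 11.75, 10.27, 11.46, 11.31 and 11.44 in the gated cells and 9.16, 8.67, 9.39, 7.80 and 9.25 in Lin- cells, with no overlap and a difference of 2.39 ± 0.26 (adjusted p = 0.00577). P4ha1, a collagen prolyl hydroxylase subunit, was higher by 1.08 ± 0.17. Increases of members with very high signals were small but held in every tumour, as for the glucose transporter Slc2a1 (0.67 ± 0.14) and the glycolytic enzymes Tpi1 (0.75 ± 0.11) and Pgk1 (0.40 ± 0.08). Pfkfb4, a regulator of phosphofructokinase, was the exception. It was lower by 1.82 on the log2 scale (± 0.27, adjusted p = 0.0136). The mean difference of the list was positive in all 5 tumours, from 0.29 in B to 1.0 in D. Leaving out a tumour left 4 members called higher without A, 9 without B, 3 without C, 6 without D and 4 without E, with medians from 0.43 to 0.66.

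A sequence feature that the comparison did not use is shown here for the promoters of this list. In RefSeq promoters of build GRCm38.p6, taken from 250 bases before to 50 bases after the gene start, the core letters of the hypoxia response element, ACGTG on either strand, occur in 21 of 38 promoters of the 28 measured hypoxia members (55.3%), of which 27 had an entry and some several. The share was 61.5% (8 of 13) for the members called higher, 24.2% for promoters of genes tested and 19.6% for all promoters of the same length. The list was chosen as genes of the hypoxia response, so its excess over all promoters does not bear on which members were called. The 55.3% of the whole list includes the called members. Of the 11 members called higher, 8 had a match in a promoter. Among those with a match before the gene start, Car9, Bnip3 and P4ha1 had the largest increases. The stretches below hold the match of each, with ACGTG or its reverse complement CACGT in capitals. They lie at chr4:43506968-43507025 (plus strand), chr7:138909569-138909653 (minus strand) and chr10:59323240-59323295 (plus strand), and the match begins 18, 107 and 16 bases before the gene start. A match is a description of letters, not of a binding site.
Car9: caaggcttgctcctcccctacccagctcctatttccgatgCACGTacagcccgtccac
Bnip3: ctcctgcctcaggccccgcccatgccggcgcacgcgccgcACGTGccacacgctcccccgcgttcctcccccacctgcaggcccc
P4ha1: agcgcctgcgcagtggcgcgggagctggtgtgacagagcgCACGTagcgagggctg

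Basal genes were higher to a small extent. Of 24 measured members 8 were called higher and 1 lower, with a median of 0.47, and the called ones were mostly parts of hemidesmosomes and Notch ligands. Itgb4, the integrin beta chain of hemidesmosomes, measured 10.82, 10.63, 10.13, 10.10 and 10.14 in the gated cells and 9.40, 9.57, 8.72, 8.31 and 8.67 in Lin- cells. It was higher in every tumour with no overlap, by 1.43 ± 0.13 (adjusted p = 0.00283). Dst (dystonin, 1.29 ± 0.15), Col17a1 (0.90 ± 0.12) and Lamb3, a laminin-332 chain (0.83 ± 0.12), belong to the same structure. The Notch ligands Jag2 (1.09 ± 0.16) and Dll1 (0.94 ± 0.22) were higher, while Notch3, a receptor, and Nrarp, a feedback target of Notch, were lower by 2.11 and 1.34 on the log2 scale. The 1 basal member called lower was Egfr, the receptor of epidermal growth factor, by 0.90. Among 15 measured integrin subunits 5 were called higher and 0 lower. These were Itgb6 (1.79 ± 0.25), Itgb4, Itga3 (1.01 ± 0.20), Itga2 (0.81 ± 0.17) and Itgb1, while Itga6, the alpha partner of Itgb4, differed by 0.32 and was not called. The count of basal members called higher was 5 without A, 5 without B, 4 without C, 5 without D and 6 without E, and that of integrins was 3 without A, D or E and 2 without B or C.

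Wnt target genes did not move as a group, while 3 Wnt ligands were higher. Among 21 measured Wnt target genes, 1 was called higher (Lgr6, 0.88 ± 0.14) and 1 lower (Notum, -1.77 ± 0.17), with a median of -0.12; Axin2, a direct target, differed by 0.35 (adjusted p = 0.225) and Lgr5, a stem cell receptor, by -0.45 (adjusted p = 0.168). Notum, a secreted enzyme that inactivates Wnt proteins, measured 9.16, 8.99, 7.22, 9.12 and 8.50 in Lin- cells and 7.49, 6.86, 5.92, 7.26 and 6.62 in the gated cells. Each tumour showed the reduction although the ranges overlapped through tumour C. Of 11 measured Wnt ligands and R-spondins 3 (27.3%, against 4.34% of all genes tested) were called higher and 0 lower. They were Wnt4 (1.67 ± 0.32), Wnt9a (1.64 ± 0.27) and Wnt10a (1.46 ± 0.20). The median of the 11 was 0.39, and their mean difference was positive in every tumour, from 0.32 in B to 0.93 in D. Wnt10a measured 8.69 to 9.04 in the gated cells and 6.93 to 8.05 in Lin- cells. Of 12 Wnt antagonists Dkk3 was higher by 1.43, and Sfrp2 and Notum were lower. A promoter was in the table for 13 of the 21 Wnt target genes, too few to count TCF letters in them, so that count is void. Of 20 genes associated with mammary stem cells, 2 were called higher (Lgr6 and Bcl11b) and 2 lower (Tspan8 and Aldh1a1), with a median of -0.20. Aldh1a1, an aldehyde dehydrogenase whose activity is used to mark mammary progenitors, was lower by 1.65 ± 0.10 (adjusted p = 0.000886).

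**Figure D3:**
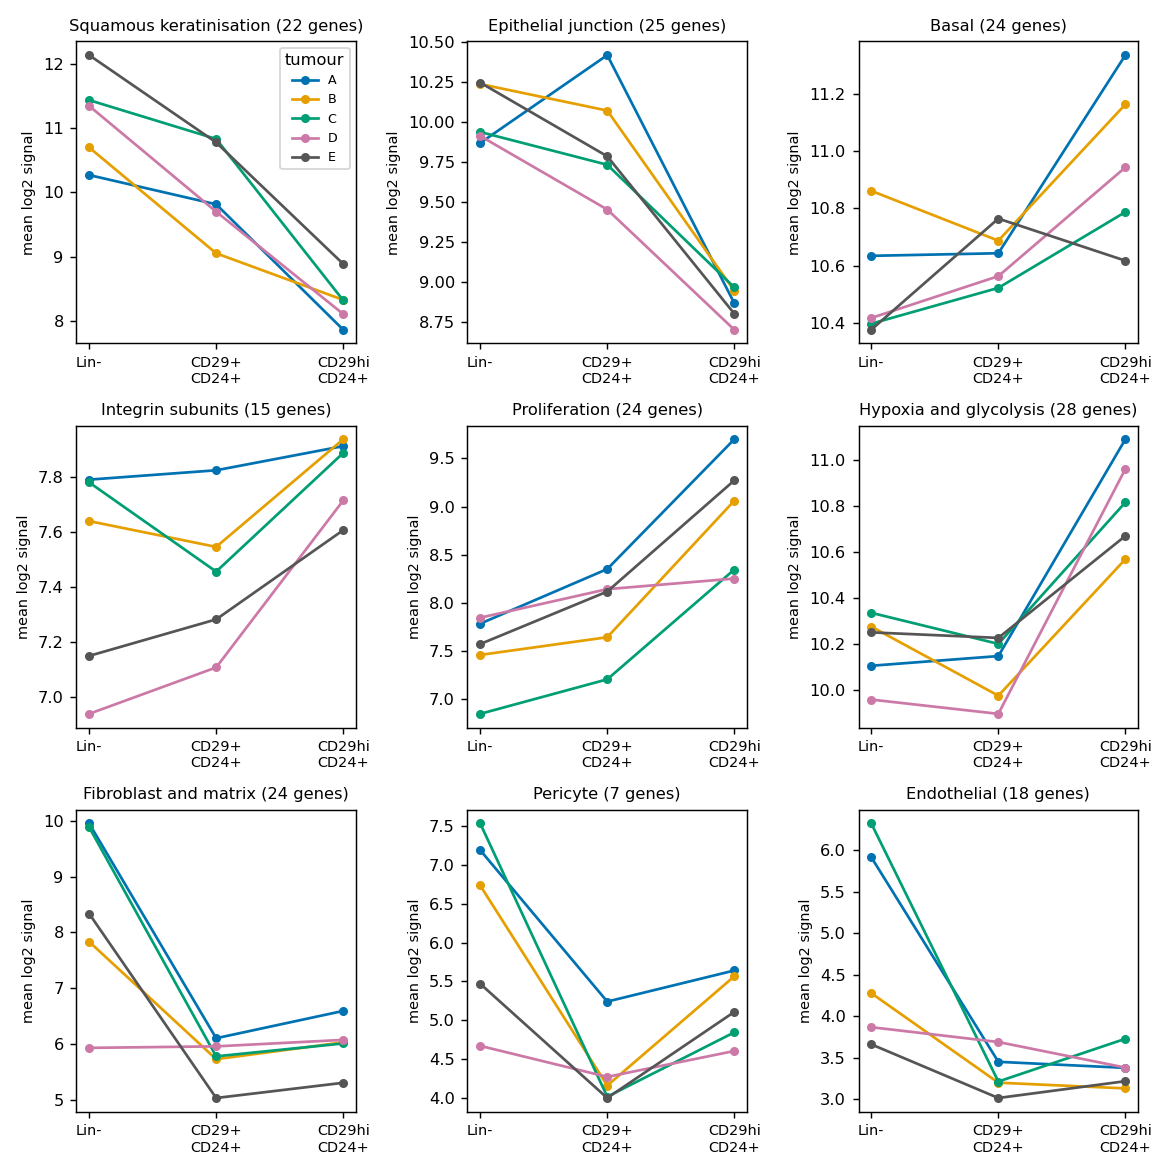
Mean log2 signal of 9 gene lists in the Lin-, CD29+CD24+ and CD29hiCD24+ populations of each tumour, 1 line per tumour; axes differ between panels. Fibroblast signals are at 5.03 to 6.59 in both gated populations, and hypoxia signals are highest in CD29hiCD24+ cells of every tumour.

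Stromal genes were lower in CD29hiCD24+ cells in most tumours. Of 24 measured fibroblast and matrix genes, 11 were called lower and 1 higher, with a median of -2.05. The mean signal of the list was 9.96, 7.83, 9.89, 5.93 and 8.34 in Lin- cells of tumours A to E and 6.59, 6.03, 6.01, 6.07 and 5.30 in the gated cells. In tumour D this mean differed by 0.14, and its Lin- cells were at the level of the gated ones. Col3a1 measured 14.02, 11.41, 13.74, 8.15 and 12.68 in Lin- cells and 9.45, 5.43, 5.96, 3.77 and 5.32 in the gated cells, a difference of -6.02 ± 0.55 (adjusted p = 0.00292). Lum, by contrast, was at 2.53 in the Lin- cells of tumour D and at 7.74 to 11.25 in those of the other 4 tumours. The defining fibroblast markers Pdgfra (-2.32 ± 0.37), Dcn (-1.64 ± 0.32) and Col1a1 (-3.49 ± 0.78) were all called lower. Tnc, tenascin C, was the 1 member called higher, by 1.48 ± 0.20. The count of members called lower was 3 without A, 4 without B, 3 without C, 3 without E and 15 without D. In bulk samples fewer cells of a type and less RNA per cell cannot be told apart.

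Markers of vessels were lower in part. Of 18 measured endothelial genes 4 were called lower and 0 higher, and the mean difference of the list was -2.54, -1.15, -2.60, -0.49 and -0.45 in tumours A to E. The called genes included Cd34 (-4.36 ± 0.71) and Vwf (-2.79 ± 0.64). Cdh5, the defining marker that was tested, was at 2.42 to 2.80 in all 5 gated arrays, within the low band, and at 2.64 to 6.55 in Lin- cells (-2.16 ± 0.56, adjusted p = 0.0585). Pecam1, the other, did not pass the filter on low values. Of the endothelial list 0 were called lower without tumour A or C, 1 without B, 3 without D and 2 without E. Of 7 pericyte genes 4 were lower, with Rgs5 at -4.30 ± 0.58 and Pdgfrb at -3.55 ± 0.81, and 2 were higher, Ndufa4l2 and Cspg4 (2.11 ± 0.50), of which the first is also a hypoxia target; 2 pericyte genes were called lower without A, B, C or E. Mesenchymal genes were split, with 5 of 20 called lower and 2 higher. Vim (vimentin, -2.77 ± 0.46) and Fn1 (fibronectin, -4.18 ± 0.99) were lower and so were Mmp2, Mmp3 and Twist1, while Tgfbi (2.19 ± 0.22) and Mmp9 were higher. Tgfbi, a matrix protein induced by TGF-beta, measured 12.47 to 14.00 in the gated cells and 9.60 to 11.41 in Lin- cells. Without tumour A, C or E 0 of the mesenchymal genes were called lower. The fibroblast values above move with this list, and their part in its result was not tested.

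Leukocyte markers gave 0 called genes of 14 measured. Their mean signal was 4.47 to 5.39 in the gated cells and 3.57 to 7.06 in Lin- cells, with the highest value in the Lin- cells of tumour B, where Ptprc (CD45, the pan-leukocyte antigen) was at 8.34 against 2.71 to 5.96 in the other Lin- arrays. Cd3e, a T cell marker, did not pass the filter. Csf1r, a macrophage marker, differed by 1.18 (adjusted p = 0.433), and was higher in the gated cells of tumours C, D and E and lower in those of A and B. The MHC class II chain H2-Ab1 was the only called gene of 8 in its list. The median difference of that list was 0.94, and its mean difference was -0.17 in tumour B and 0.75 to 1.95 in the other tumours. Against CD29+CD24+ cells 3 of these 8 genes were called higher and 0 lower, where 7.76% of all genes tested were called higher. Contractile genes gave 2 called higher of 14, Tpm2 (0.93 ± 0.21) and Actn1 (0.71 ± 0.13), both of which many cell types make; 0 were called without A, B or D and 1 without C or E, with medians from 0.23 without D to 1.01 without B. Acta2, smooth muscle actin, differed by 1.89 (adjusted p = 0.109), with Lin- signals of 11.81, 12.26, 11.59, 8.24 and 8.33 and gated signals of 13.14, 12.72, 11.91, 12.88 and 11.07, and 1 of its 2 kept probe sets had the opposite sign. Milk protein genes gave 0 called of 13, and tumour A had the highest milk signal in all 3 of its populations. Interferon response genes gave 0 called of 16, with a median difference of 0.67. Their mean difference was 1.14, 0.14, 0.14, 1.51 and 0.57 in tumours A to E. Against CD29+CD24+ cells 5 of the 16 were called higher and 0 lower. The oxidative and protein stress list gave 0 called of 16, with a median of -0.02. Of 21 immediate early genes, which dissociation induces, 1 was called, Btg2 (lower by 0.76).

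Setting CD29hiCD24+ against the other gate of the same tumours, CD29+CD24+, showed which differences remained between 2 gated populations. In the 15 tumour arrays 2087 genes (15.5%) were called, 1047 (7.76%) higher and 1040 (7.71%) lower in CD29hiCD24+ cells; without the block 259 were. CD29+CD24+ against Lin- gave 5 called genes (0.0371%), Bmp6, Cst6, Esm1, Plxdc2 and Saa3, all lower in the gate, and 1159 at an unadjusted p under 0.05. These comparisons share arrays with the one above, so their values are given side by side and not as further evidence. Fibroblast genes had a median difference of 0.22 between the 2 gates, and of -2.77 between CD29+CD24+ and Lin-, where 0 of 24 were called. Col3a1 differed by -0.02 ± 1.11 between the gates, and was higher in CD29hiCD24+ cells of tumours A, B and E and lower in those of C and D. Keratinisation genes had a median of -1.57 between the gates, with 15 of 22 called lower, and of -0.95 between CD29+CD24+ and Lin-, with 0 of 22 called. Krt10 averaged 13.48 in Lin-, 11.60 in CD29+CD24+ and 8.11 in CD29hiCD24+ cells, and its difference between CD29+CD24+ and Lin- was -1.89 ± 0.32 (limma adjusted p = 0.0852). Junction genes gave 17 of 25 called lower between the gates and cell cycle genes 18 of 24 called higher. For CD29hiCD24+ against Lin- in 15 arrays, 17 keratinisation and 18 junction genes were called lower and 22 cell cycle genes higher. That fit called more genes in all, 1252 of 13485 higher and 1305 lower, against 585 and 662 in the 10 arrays.

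Hypoxia genes were level between CD29+CD24+ and Lin- cells (median -0.04) and higher in CD29hiCD24+ than in CD29+CD24+ cells (median 0.60, 21 of 28 called higher and 1 lower). Against Lin- in 15 arrays, 17 were called higher and 3 lower in CD29hiCD24+ cells, where 1252 of all 13485 genes were called higher and 1305 lower. Car9 averaged 3.98 in Lin-, 3.88 in CD29+CD24+ and 7.93 in CD29hiCD24+ cells. The 10 genes highest against the other gate also held Mmp9 (4.56 ± 0.58), Adam12 (4.13 ± 0.46), Ndufa4l2 (4.09 ± 0.39), H2-Ab1 (3.24 ± 0.42) and 3 contractile genes, Acta2 (3.80 ± 0.67), Myl9 (3.64 ± 0.59) and Tagln (3.44 ± 0.86). Of 14 contractile genes 8 were called higher against CD29+CD24+ and 0 lower, and 5 higher and 0 lower against Lin- in 15 arrays. Their mean signal was 5.67 to 5.89 in CD29+CD24+ cells, 6.05 to 8.05 in CD29hiCD24+ cells and 5.65 to 7.41 in Lin- cells.

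**Figure D4:**
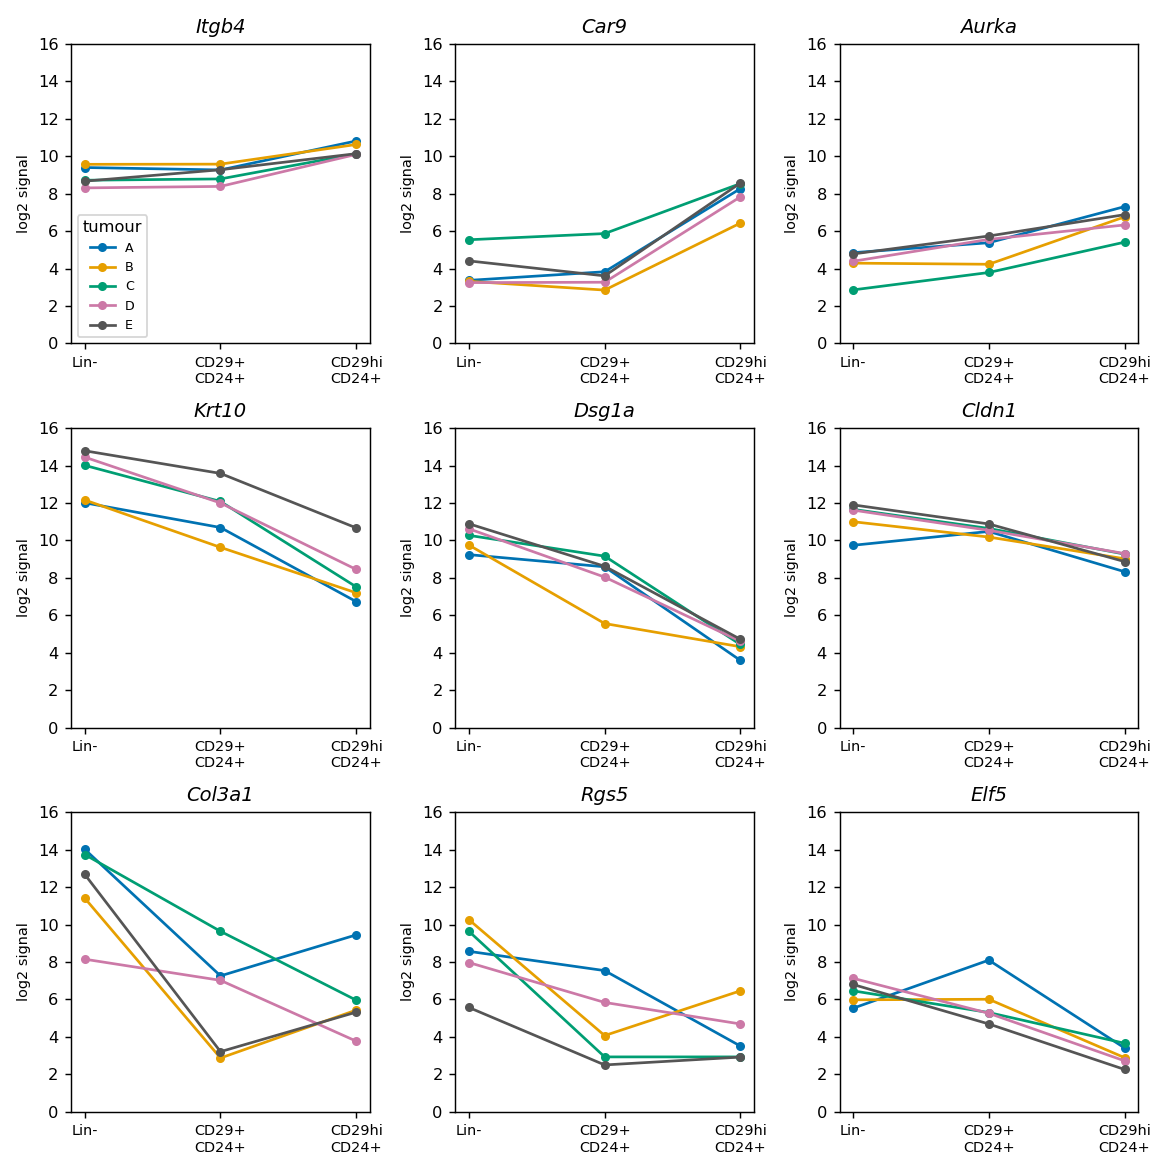
Log2 signal of 9 named genes in the 3 sorted populations of tumours A to E, 1 line per tumour. Col3a1 is lower in both gates than in Lin- cells of the same tumour, Krt10 and Dsg1a are lowest in CD29hiCD24+ cells, and Car9 and Itgb4 are highest in CD29hiCD24+ cells of every tumour.

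The same pair of populations in normal glands differed in another way. The difference between tumours and normal glands in CD29hiCD24+ minus Lin- was called for 4414 genes (32.7%), with 2467 (18.3%) higher and 1947 (14.4%) lower in the tumours' difference. Basal genes differed less in tumours: their median difference was 2.94 in normal glands and 0.47 in tumours, and the contrast was lower in tumours for 16 of 24 members and higher for 0. The mean basal signal was 10.77 to 11.01 in normal CD29hiCD24+ cells and 7.32 to 8.86 in normal Lin- cells, against 10.38 to 10.86 in tumour Lin- cells. Junction genes, with a median of -2.77 in normal glands and -1.29 in tumours, had a contrast called higher for 8 of 25 and lower for 2.

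Keratinisation genes had a median of -0.21 in normal glands, and the contrast was lower in tumours for 11 of 22 and higher for 3. Their mean signal was 5.31 to 5.70 in normal Lin- cells, and 10.27 to 12.14 in tumour Lin- cells. Dsc1 differed by 0.43 in normal glands and by -7.55 in tumours, a contrast of -7.98 ± 1.05 (adjusted p = 9.77e-05). Its normal signals averaged 3.21 in CD29hiCD24+ and 2.78 in Lin- cells, at or near the low band, so little difference could show there. Aurka was lower by 2.52 on the log2 scale in the normal gate and higher by 2.30 in the tumour gate (contrast 4.82 ± 0.74, adjusted p = 0.000321). Of the 24 cell cycle genes the contrast was called higher for 6, against 18.3% of all genes, and lower for 1. Their median difference in normal glands was 0.28, against -0.016 over all genes tested. Wnt4 was lower by 3.90 in the normal gate and higher by 1.67 in the tumour gate, and Itgb6 was lower by 2.20 and higher by 1.79. Endothelial genes were higher in the normal gate (median 1.73) and lower in the tumour gate (-1.11), with 9 of 18 contrasts called lower. The normal CD29hiCD24+ arrays had endothelial mean signals of 5.87 to 8.75 and the tumour ones 3.13 to 3.73.

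The normal CD29hiCD24+ array of gland pool F differed from the other 2 of its group in several lists. Its mean signal was 8.75 for endothelial genes, against 6.80 and 5.87, 7.73 for leukocyte markers, against 3.87 and 3.78, and 7.25 for MHC class II genes, against 4.13 and 4.20. Its junction mean was 7.37, against 8.68 and 8.84. Without this array 3558 contrasts between tumours and normal glands were called in place of 4414. The contrast was then lower in tumours for 14 of 24 basal genes, 10 of 22 keratinisation genes and 7 of 18 endothelial genes, and higher for 5 of 25 junction genes and 5 of 24 cell cycle genes. The medians of these contrasts with the array and without it were -2.63 and -2.72 for basal, -2.05 and -2.06 for keratinisation, -3.15 and -2.29 for endothelial, 1.46 and 1.01 for junction and 1.05 and 1.17 for cell cycle genes. The part of vessel and blood cells in the normal gate's other differences was not tested.

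**Figure D5:**
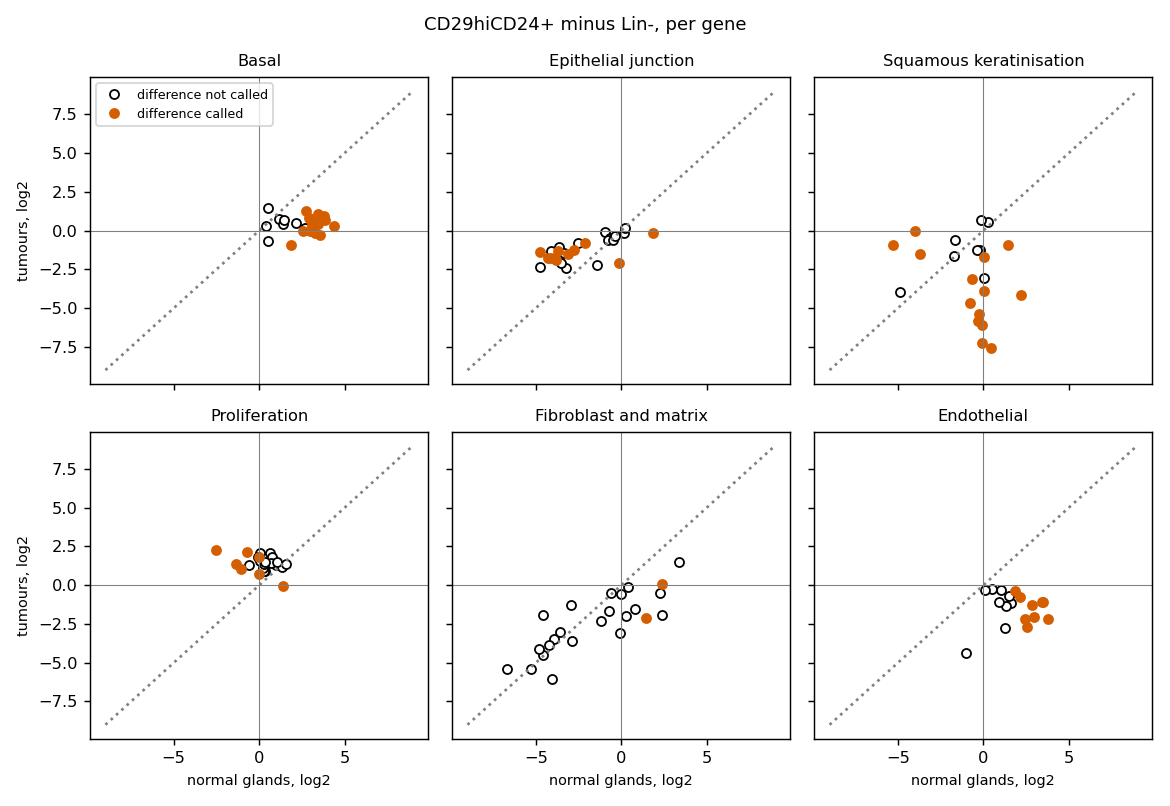
CD29hiCD24+ minus Lin- (log2) for each measured gene of 6 lists, in normal glands (horizontal) and tumours (vertical); filled points have a called difference between the 2, and the dotted line marks equal differences. Basal genes other than Itgb4 lie to the right of the line and keratinisation genes mostly below 0 on the tumour axis.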

How the data were processed

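RNA of sorted cells was measured on Affymetrix mouse arrays, 1 array per population and tumour. The authors deposited log2 values, 1 per probe set, and the submitters' processing notes list RMA, GCRMA and Partek, without saying which step each served. Of 45101 probe sets, 34945 had 1 gene name. Probe sets above the low band (the 40th percentile over all arrays) in 3 or more of the 24 arrays were retained, and each gene was represented by its retained probe set of highest mean, which left 13485 genes. limma 3.58.1 in R 4.3.3 fitted population and tumour over the 10 arrays, with a variance trend on mean signal. CD29hiCD24+ against CD29+CD24+ used the 15 tumour arrays with tumour as a block, and the contrast with normal glands used 16 arrays and 4 group means without a block. The script was tested on simulated data. Populations with the same letter come from 1 tumour; with group means removed, the CD29hiCD24+ and Lin- arrays of 1 tumour correlated at 0.36 to 0.62 across genes (5 pairs), and those of different tumours at -0.35 to 0.25 (20 pairs). The gene lists and tests were chosen with earlier results of these data known. Genes named are the 15 highest and lowest called genes with the same sign in all tumours, up to 4 called members of each list, the gate genes, defining markers and the 10 largest of the other comparisons in each direction; further list members are named where a whole list is accounted for or as examples chosen after their values were seen. The number of arrays limits the precision. Promoter sequences are RefSeq's, build GRCm38.p6. List members without a retained probe set were not used here.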

Additional observations from a re-analysis of the deposited data

Results flagged for a closer look

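By Dixon's test, a highest or lowest array stood apart from the others in 10 of 122 groups of 5 arrays. The nominal rate of the test is about 1 in 20. The groups are genes and lists read on the same arrays and are not independent, so this count does not measure an excess. The CD29hiCD24+ array of tumour E was the one apart in 5 of the 10. It was highest for Krt1 (5.68, next 2.11), Cnfn (5.32, next 2.74) and Acer1 (3.38, next 2.92). It was lowest for the mean of Itgb1, Cd24a and Apc (10.32, next 11.73) and for the mean of the stem cell list (8.08, next 8.74). The Lin- array of the same tumour was also lowest for the mean of Itgb1, Cd24a and Apc (10.90, next 11.47). Apc was low in all 3 populations of tumour E, at 8.06 in CD29hiCD24+, 9.13 in Lin- and 9.49 in CD29+CD24+ cells. The CD29hiCD24+ array of tumour C was highest for Saa3 (11.48, next 5.91) and Lum (4.07, next 2.63), that of tumour A for the milk protein list (8.90, next 5.11), and the Lin- array of tumour B for Calcb (5.86, next 3.73).

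The difference between CD29hiCD24+ and Lin- cells was not the same in tumours and normal glands for 4414 genes by limma's interaction contrast at an adjusted p under 0.05. Values below are the tumours' difference minus the normal glands' difference, in log2 units, with standard error. The 10 highest were Tesc (6.65 ± 1.55), Aoc1 (6.26 ± 1.19), Kif2c (6.07 ± 0.64), Akr1c13 (5.91 ± 0.74), Steap1 (5.79 ± 0.72), Rasgrf1 (5.79 ± 0.86), Ccdc162 (5.67 ± 0.64), Entpd3 (5.64 ± 1.23), Wnt4 (5.57 ± 0.67) and Ttc39a (5.47 ± 0.84). Of these, Tesc, Rasgrf1, Ccdc162, Aoc1 and Ttc39a were not called in tumours (0.46, -0.13, -0.02, 0.78 and 0.52) and were lower in the normal gate (-6.19, -5.92, -5.70, -5.48 and -4.95). Ccdc162 was at 2.10 to 2.20 in tumour CD29hiCD24+ and 2.14 to 2.22 in tumour Lin- cells, all within the low band. Its tumour values therefore cannot show a gate difference. Kif2c, a mitotic motor that removes tubulin from microtubule ends, was higher by 1.65 in the tumour gate and differed by -4.42 in the normal one.

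The 10 lowest were Dsc1 (-7.98 ± 1.05), Them5 (-7.84 ± 0.89), Krt1 (-7.16 ± 1.65), Elovl4 (-6.77 ± 0.91), Tmem204 (-6.70 ± 1.33), Krt23 (-6.68 ± 0.80), Serpinb11 (-6.37 ± 1.62), Calml3 (-6.34 ± 0.69), Saa3 (-6.20 ± 2.06) and Calm4 (-6.17 ± 1.10). Them5, Elovl4, Tmem204, Krt23 and Serpinb11 were lower in the tumour gate (-3.30, -2.37, -3.05, -3.35 and -2.58) and higher in the normal gate (4.53, 4.40, 3.65, 3.33 and 3.80). Normal CD29hiCD24+ and Lin- cells averaged 3.21 and 2.78 for Dsc1 and 2.25 and 2.33 for Calm4, at or near the low band.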

How the results depend on the processing

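The count of 1247 called genes (585 higher, 662 lower) moved with the number of tumours: leaving out 1 gave 425 to 786 (195 to 380 higher, 230 to 446 lower). Without pairing by tumour (no replicate block) it was 465 (204 and 261), and the proliferation list had 12 members called higher, fibroblast 6 and luminal 3 lower. With the 15 tumour arrays it was 2557 (1252 and 1305); quantile normalization gave 908 higher, against 716 lower; and a covariate for actin's 3' minus 5' signal gave 1050 lower, against 684 higher. The signs of the 1247 were kept in at least 1246 under each setting that tested them all. Against CD29+CD24+, no replicate block gave 259 (138 and 121), and leaving out 1 tumour 1074 to 1312 (540 to 749 higher, 516 to 699 lower). Uncalled differences changed sign for Epcam (0.02 with probe sets averaged, -0.17 to 0.04 leaving out 1 tumour), Krt14 (0.07 with probe sets averaged, 0.01 with quantile normalization, -0.10 to 0.01 leaving out 1 tumour) and Krt8 (-0.76 to 0.30 leaving out 1 tumour). The causes were not tested. The interaction count stayed within 1.5 times of 4414 in every setting. Signals in the low band give compressed differences.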
